A study of Mus musculus with 8 samples.

Results

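Il1r2, Irf4, Batf, Maf, Prdm1 and Il10 were followed through lung group 2 innate lymphoid cells (ILC2s), tissue lymphocytes without rearranged antigen receptors that make IL-5 and IL-13 in response to IL-33. Il1r2 and Irf4 were chosen by their single-cell levels, as leading genes of the cluster that the authors numbered 5, so their levels in that cluster are a description; Batf, Maf, Prdm1 and Il10 were added as factors and a cytokine known to work with Irf4. All 6 were among the 55413 genes of the bulk table, and 5 of the 6 were among the 15083 genes of the single-cell table. Il10 was not analysed in single cells here.

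All cells came from lungs of wild type C57BL/6 mice. Bulk full-length libraries (Smart-Seq2), each of 2000 ILC2s of females treated through the nose for 3 days, numbered 3 for IL-33 with PBS, the vehicle, and 3 for IL-33 with dopamine, a catecholamine neurotransmitter. In the droplet (10x) pool, which came from males, 9076 cells carried 8 antibody hashtags: 2 for PBS without IL-33, 3 for IL-33 and 3 for IL-33 plus dopamine. The bulk data thus compare dopamine with vehicle under IL-33 in female mice, and the droplet data hold the same contrast in male mice plus a group without IL-33. The labels do not say that a hashtag was 1 mouse, so p-values over hashtags measure the spread between hashtags, which may be technical.

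IL1R2 is a decoy receptor: it binds IL-1 but lacks a signalling domain, and so competes with the signalling receptor IL1R1 and its partner IL1RAP. IRF4 and BATF, an interferon regulatory factor and an AP-1 family factor, bind DNA together with JUN proteins in activated lymphocytes. MAF (c-Maf) and BLIMP-1, the product of Prdm1, are transcription factors known from T cells as activators of Il10, which encodes an anti-inflammatory cytokine. IL-10-producing ILC2s have been described in the lung, and the same factors mark effector regulatory T cells.

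The genes lie on separate chromosomes except for Il1r2 and Il10 (GENCODE M21, GRCm38, all protein-coding). Il1r2 spans chr1:40074079-40125231 on the plus strand, in the IL-1 receptor cluster with Il1r1 (chr1:40225080-40317257) and the IL-33 receptor gene Il1rl1 (chr1:40429570-40465415), and Il10 spans chr1:131019845-131024974 on the plus strand. Irf4 is at chr13:30749226-30766976 (plus), Batf at chr12:85686669-85709087 (plus), Maf at chr8:115682942-115707794 (minus) and Prdm1 at chr10:44437177-44528501 (minus). An antisense gene, Gm16894, lies within Il1r2, and another, Gm15655, within Maf. A further gene, Gm37347, lies within Il1r2 on the same strand. The sources used here do not say whether reads were counted by strand. Whether reads of these genes enter the values of Il1r2 and Maf was not tested.

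RefSeq (GRCm38.p6) gave promoters for 4 of the 6 genes, and those of Maf and Il10 were not analysed here. The 250 bases before each start are shown because the factors encoded by 4 of these genes bind DNA, so their own promoters can be searched for sites of the same factors. For Il1r2 and Prdm1 the RefSeq start lies inside the GENCODE span given above and not at its upstream end. Capitals mark the matches found.
Il1r2 (chr1:40085843-40086092, plus): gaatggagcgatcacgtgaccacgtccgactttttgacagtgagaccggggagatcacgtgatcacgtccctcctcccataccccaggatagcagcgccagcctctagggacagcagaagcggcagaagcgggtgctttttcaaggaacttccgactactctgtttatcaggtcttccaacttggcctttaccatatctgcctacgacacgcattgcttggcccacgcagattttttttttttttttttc
Irf4 (chr13:30748983-30749232, plus): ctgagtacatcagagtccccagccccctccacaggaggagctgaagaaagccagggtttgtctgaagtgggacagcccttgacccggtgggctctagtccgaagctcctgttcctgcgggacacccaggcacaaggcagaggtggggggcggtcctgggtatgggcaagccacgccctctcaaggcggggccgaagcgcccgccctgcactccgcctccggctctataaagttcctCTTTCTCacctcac
Batf (chr12:85686470-85686719, plus): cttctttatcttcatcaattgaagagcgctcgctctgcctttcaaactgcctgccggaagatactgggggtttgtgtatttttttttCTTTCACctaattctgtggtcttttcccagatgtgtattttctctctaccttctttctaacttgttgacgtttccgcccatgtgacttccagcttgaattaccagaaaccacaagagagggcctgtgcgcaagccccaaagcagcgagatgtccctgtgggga
Prdm1 (chr10:44458749-44458998, minus): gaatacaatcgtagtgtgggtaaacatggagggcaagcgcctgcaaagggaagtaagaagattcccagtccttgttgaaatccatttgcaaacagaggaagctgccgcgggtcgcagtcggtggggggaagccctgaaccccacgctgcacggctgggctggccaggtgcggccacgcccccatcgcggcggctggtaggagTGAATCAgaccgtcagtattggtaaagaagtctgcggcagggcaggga
Both strands were searched for TGANTCA (the AP-1 site, which BATF and JUN share), the AP-1 site preceded by GAAA, or by TTTC and 4 further bases (AP-1 joined to an IRF element, which contains the AP-1 site), GAAA repeated after 2 bases (a tandem IRF element), TGCTGA (a core of the MAF site) and GNGAAAG (a BLIMP-1 core). The Prdm1 window held 1 AP-1 site, from base -48 to base -42 before the start. The Irf4 window held a BLIMP-1 core from base -14 to -8, and the Batf window 1 from base -163 to -157, both on the minus strand. The Il1r2 window held none of these letters. Among the first 250 bases of all 32851 RefSeq promoters, 6.75% held the AP-1 site, 19.4% the BLIMP-1 core, 16.1% the MAF core, 2.98% the tandem IRF element, and 0.10% and 0.0974% the composite elements. A match is a description of letters and not a measured binding site.

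Libraries differed in ways that bear on what follows. The bulk table gives TPM, length-corrected shares of reads scaled to a total of 1000000, and its sequencing depth is unknown; between 9822 (PBS library 2) and 11745 genes had a TPM of at least 1. Total UMIs, counts of tagged molecules, ran from 1397576 in hashtag 1 to 9268932 in hashtag 3. The 6 clusters held 913 to 2289 cells; cells of cluster 5 had a median of 8142 UMIs, against 4082 to 5480.5 in the others. Cluster 5 made up 2.57% and 3.07% of the cells of the PBS hashtags 1 and 2, 22.0%, 8.88% and 11.7% of the IL-33 hashtags 3, 4 and 5, and 6.71%, 14.2% and 1.76% of the IL-33 plus dopamine hashtags 6, 7 and 8. All 9076 barcodes were distinct. Gata3, which defines the ILC2 lineage, was at 272 to 473 TPM in all 6 bulk libraries.

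In bulk ILC2s given IL-33, Il1r2 and Batf were each lower in all 3 dopamine libraries than in all 3 PBS libraries, and neither passed the test over all genes. Irf4, Maf, Prdm1 and Il10 overlapped between the groups. By limma with Benjamini-Hochberg adjustment, 0 of the 6 members passed at an adjusted p under 0.05, 2 had an unadjusted p under 0.05, and over all genes 4 of 11222 passed (0.0356%) and 24.1% had an unadjusted p under 0.05. Of all tested genes 6.57% were lower and 23.5% higher with dopamine without overlap (30.0% in either direction), against 2 and 0 of the 6 members.

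Il1r2 was at 288, 294 and 299 TPM in the PBS libraries and at 182, 60.7 and 42.8 TPM in the dopamine libraries. The PBS libraries lay within a few TPM of each other, and the dopamine libraries were spread out below them, library 1 nearest. The group means were 294 ± 5.77 and 95.2 ± 75.8 TPM (SD, n = 3). The change on the log2(TPM + 1) scale was -1.90 ± 0.44 (SE), or -2.39 after subtracting the all-gene median of 0.49; the limma adjusted p was 0.083. Over the alternatives the adjusted p ran from 0.0109 to 0.242, and Il1r2 passed with array weights (0.0109) and without dopamine library 1 (0.0187). Of all genes 2800 of 11222 passed with array weights, and 4 of 10677 without dopamine library 1.

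Batf was at 329.8, 409.7 and 233 TPM with PBS and at 171, 149 and 148 TPM with dopamine. Here it was the dopamine libraries that lay close together, all below the lowest PBS library. The means were 324 ± 88.7 and 156 ± 13.0 TPM (SD, n = 3), a change of -1.01 ± 0.24 (log2, SE) or -1.51 relative to all genes, with a limma adjusted p of 0.084. The adjusted p ran from 0.0309 to 0.242 over the alternatives, and Batf passed with array weights (0.0309) and without PBS library 1 (0.0498). In these settings many genes passed: 2800 of 11222 with array weights and 1536 of 10733 without PBS library 1.

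Irf4, the partner of BATF, was at 32.7, 10.7 and 11.8 TPM with PBS and at 26.8, 11.8 and 21.0 TPM with dopamine. Library 1 was the highest in both groups, and the groups overlapped. Its log2 change was 0.21 ± 0.52 (SE) in the deposited TPM and -0.28 relative to all genes, so its direction depended on the centring (limma adjusted p = 0.81). Maf was at 18.7, 9.65 and 10.7 TPM with PBS and 13.7, 11.3 and 17.8 TPM with dopamine (limma adjusted p = 0.84).

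Prdm1 was at 9.32, 3.84 and 8.71 TPM with PBS and at 5.46, 18.2 and 4.10 TPM with dopamine, where library 2 alone was high (limma adjusted p = 0.91). Jchain, of the B and plasma cell markers, was at 43.5, 0.51 and 193 TPM with PBS and 0.94, 184 and 1.41 TPM with dopamine. Jchain too was high in dopamine library 2 alone and lowest with PBS in library 2. The part of such cells in the Prdm1 values was not tested. Il10 was at 1.19, 3.29 and 2.35 TPM with PBS, at 6.16 TPM in dopamine library 1, and listed at 0 in dopamine libraries 2 and 3. All 3 PBS libraries thus held a low level of Il10, and the dopamine group held both the highest value and the zeros (limma adjusted p = 0.57).

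**Figure D1:**
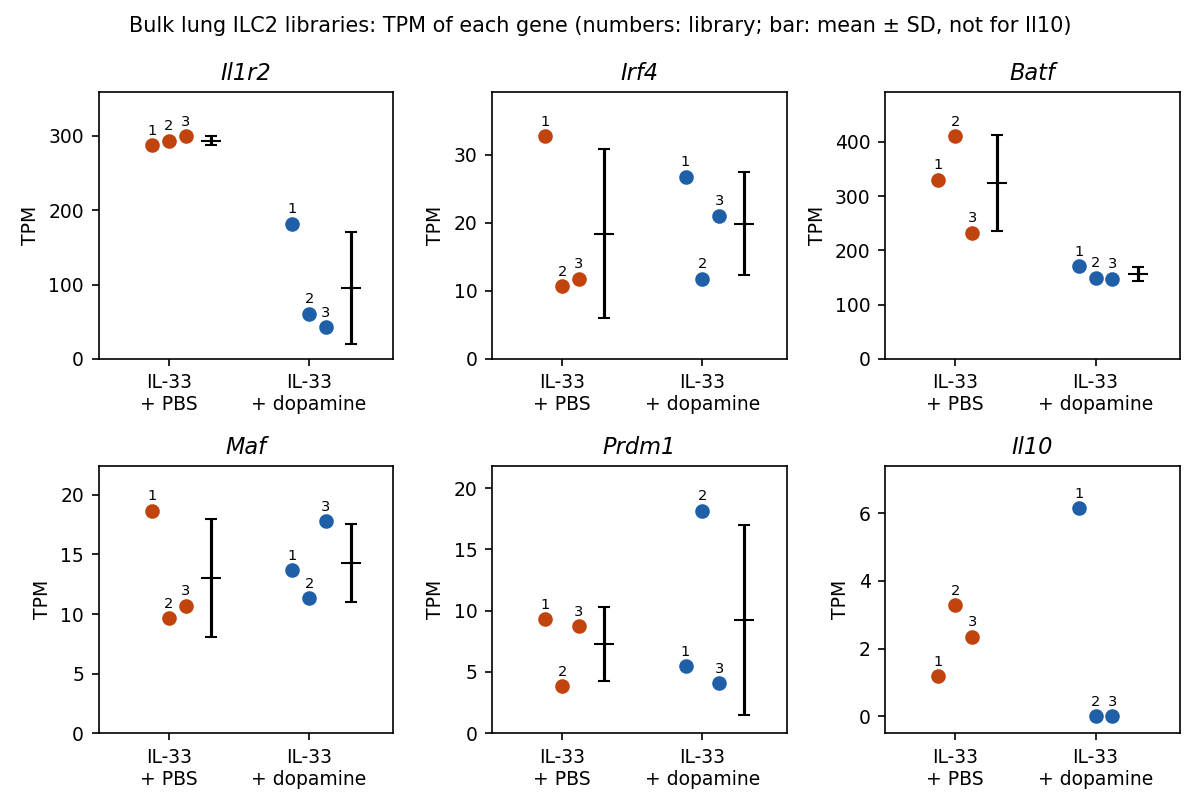
TPM (vertical axes, linear) of the 6 genes in bulk lung ILC2 libraries from mice given IL-33 plus PBS or IL-33 plus dopamine; points are libraries with their numbers, bars are the mean ± SD of 3, left out for Il10, which is listed at 0 in a pair of libraries. Il1r2 and Batf separate the groups (288 to 299 against 42.8 to 182 TPM, and 233 to 409.72 against 148 to 171 TPM), and the other 4 genes overlap.

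The markers of other cells that sorted ILC2s could hold were measured beside these values. T cell markers summed to 1159 to 1698 TPM with PBS and 1717 to 2230 TPM with dopamine, NK cell and ILC1 markers to 8.89 to 48.7 and 106 to 201 TPM, and ILC3 markers to 13.4 to 71.0 and 97.7 to 221 TPM. None of the genes on these 3 lists passed the limma test, and their part in the Il1r2 and Batf values was not tested. Neutrophils carry abundant Il1r2: of their defining genes, S100a8 was listed at 0 in all 6 libraries and S100a9 in 5 of the 6 (14.0 TPM in PBS library 1), and the 9 markers summed to 7.41 to 38.8 TPM with PBS and 0.40 to 18.9 TPM with dopamine. Foxp3, which defines regulatory T cells, was listed at 0 in the PBS libraries and dopamine library 3, and was at 3.5 and 0.99 TPM in dopamine libraries 1 and 2. B and plasma cell markers summed to 91.5 to 5238 TPM with PBS and 131 to 2041 TPM with dopamine. Macrophage and monocyte markers summed to 30.7 to 1375 and 3.15 to 537 TPM. Among them Lyz2, a myeloid gene, was at 115, 8.73 and 25.2 TPM with PBS. With dopamine it was listed at 0 in library 1 and was at 390 and 0.76 TPM in libraries 2 and 3. The part of these cells in the values of the 6 genes was not tested. In bulk, fewer cells of a type and less RNA per cell cannot be told apart.

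The list of the IL-1 receptor family held genes on both sides of PBS. Of its 21 genes 18 were tested and 0 passed by limma. With dopamine 7 were higher and 1, Il1r2, was lower without overlap, beside 23.5% and 6.57% of all tested genes. The median change was 0.70 against 0.49 over all genes. Il1r1, the signalling receptor, was at 0.92, 0.24 and 1.19 TPM with PBS and 1.54, 9.61 and 8.12 TPM with dopamine (limma adjusted p = 0.14). Il1rap, the shared co-receptor, was at 1.6, 0.55 and 1.25 TPM against 2.6, 7.54 and 5.85 TPM (limma adjusted p = 0.15). Both were under the lowest Il1r2 value in every library. Il1rl1, the IL-33 receptor, overlapped (52.2 to 185 TPM with PBS, 71.5 to 130 TPM with dopamine).

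Genes around the other members gave the following, beside 23.5% higher and 6.57% lower without overlap and a median change of 0.49 over all tested genes. Of the 8 genes of the BATF, IRF4 and JUN list 7 were tested, 3 were higher and 2 lower without overlap, and 0 passed by limma; Junb was at 2388, 979 and 2640 TPM with PBS and 4050.3, 5695 and 6847 TPM with dopamine (adjusted p = 0.083), and Batf3 was at 8.01 to 23.7 TPM with PBS, at 7.66 and 6.44 TPM in dopamine libraries 2 and 3 and listed at 0 in library 1. Of the 9 genes of the MAF, small MAF and BACH list 8 were tested, 2 were higher without overlap, 0 passed, and the median change was 1.18. Mafk, a small MAF protein, was at 2.17 to 28.5 TPM with PBS and 72.1 to 101 TPM with dopamine. Bach2, a repressor that opposes BLIMP-1, overlapped (0.18 to 12.5 and 3.91 to 37.1 TPM), as did Bcl6, the classical antagonist of BLIMP-1 (2.58 to 4.38 and 4.27 to 4.41 TPM).

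Of the 14 genes of the BLIMP-1 partner and antagonist list all were tested, 8 were higher and 0 lower without overlap, and 0 passed by limma (median change 1.46). For this list and those below, the values over all tested genes were 23.5% higher, 6.57% lower and a median change of 0.49. Of the 17 regulators of Il10, 7 were higher and 1, Batf, was lower without overlap, and 0 passed (median 0.92); Nfil3, which supports Il10 in T cells, was at 39.2 to 68.1 TPM with PBS and 89.2 to 97.4 TPM with dopamine. Of the 8 genes of IL-10 signalling 2 were higher without overlap and 0 passed; Il10ra, the ligand-binding chain, was at 6.58 to 74.7 and 64.3 to 118 TPM, and Il10rb at 16.4 to 42.8 and 25.1 to 30.9 TPM. Of the 9 interferon regulatory factors 3 were higher without overlap and 0 passed (median 0.70).

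The list of receptors and factors typical of effector regulatory T cells had a median change of -0.13 against 0.49 over all genes. Of its 17 genes 16 were tested, 4 were lower and 4 higher without overlap (6.57% and 23.5% of all tested genes), and 0 passed by limma. Ctla4, an inhibitory receptor, was at 163, 76.6 and 74.5 TPM with PBS and 69.7, 32.7 and 26.6 TPM with dopamine (limma adjusted p = 0.13). Like Il1r2, it was highest in library 1 of the dopamine group.

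In single cells, Il1r2, Irf4 and Batf were each higher in all 3 IL-33 hashtags than in both PBS hashtags, Prdm1 was lower in all 3, and Maf overlapped. None passed the test over all genes: by edgeR's quasi-likelihood test 0 of the 5 members passed after Benjamini-Hochberg adjustment and 3 had an unadjusted p under 0.05, and over all genes 0 of 10820 passed (0.0%), 11.7% had an unadjusted p under 0.05, 20.8% were higher and 13.5% lower without overlap. Without overlap in either direction were 34.3% of all tested genes and 4 of the 5 members. DESeq2 passed 45 genes, neither Batf nor Maf among them, and gave no adjusted p for Il1r2, Irf4 and Prdm1.

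Il1r2 gave 1 UMI in hashtag 1 and none in hashtag 2 of the PBS group, or 0.716 and 0 UMIs per 1000000 UMIs (CPM). In these hashtags 3 counts would be 2.15 and 0.893 CPM. The IL-33 hashtags 3, 4 and 5 stood at 25.2, 3.95 and 4.30 CPM. Hashtag 3 was far above hashtags 4 and 5, and all 3 were above PBS. Neutrophil markers, summed in the same way, were at 0.686 to 16.7 CPM in the IL-33 hashtags, 0 to 0.716 CPM with PBS and 0.437 to 0.6 CPM with dopamine. Dendritic cell markers summed to 38.1 to 43.9 CPM with IL-33 and 22.2 to 29.8 CPM with PBS, and NK cell and ILC1 markers to 183 to 195 and 227 to 237 CPM, both without overlap; their part in the changes with IL-33 was not tested. The pooled ratio of IL-33 to PBS was 59.0, with a counting interval of 10.5 to 2338 that covers counting error only and rests on a single PBS molecule; the edgeR adjusted p was 0.36.

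Irf4 was at 12.2 and 11.9 CPM with PBS and at 41.6, 22.0 and 28.6 CPM with IL-33, again highest in hashtag 3. Its change was 1.35 ± 0.55 (log2, SE), with an edgeR adjusted p of 0.38. Batf was at 46.5 and 35.1 CPM with PBS and at 61.5, 47.2 and 47.9 CPM with IL-33, so the gap between the nearest hashtags was small (0.38 ± 0.18, log2, SE; edgeR adjusted p = 0.43).

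Prdm1 was at 30.8 and 31.0 CPM with PBS and 26.3, 25.1 and 26.0 CPM with IL-33, a tight pair above a tight trio (-0.29 ± 0.17, log2, SE; edgeR adjusted p = 0.54). Maf was at 161 and 194 CPM with PBS and 192, 178 and 181 CPM with IL-33 (edgeR adjusted p = 1.00).

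With dopamine added to IL-33, no member separated the groups in single cells as measured. By edgeR 3 of 10559 genes passed (0.0284%) and 9.47% had an unadjusted p under 0.05, against 0 and 0 of the 5 members; DESeq2 passed 26 genes and no member. Of all tested genes 7.81% were higher and 6.93% lower with dopamine without overlap (14.7% in either direction), against 0 of the 5 members.

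Il1r2 stood at 8.11, 13.4 and 1.08 CPM in the dopamine hashtags 6, 7 and 8, within the span of the IL-33 hashtags except for hashtag 8 below it. The means were 11.2 ± 12.2 CPM with IL-33 and 7.52 ± 6.17 CPM with dopamine (SD, n = 3), a change of -0.64 ± 0.70 (log2, SE) with an edgeR adjusted p of 0.80. Without hashtag 3 the change was 0.86, and it was 0.16 when each hashtag was given the same cluster makeup, so its direction turned in both cases. The difference from the bulk change was not tested.

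Irf4 was at 26.4, 41.8 and 9.57 CPM with dopamine (-0.27 ± 0.36, log2, SE; edgeR adjusted p = 0.84), turning to 0.02 without hashtag 3 and 0.10 without hashtag 8. The order of the dopamine hashtags was the same for Il1r2, Irf4, Batf and Maf: hashtag 7 highest, 6 next and 8 lowest. It was also their order in the share of cluster 5 and in median UMIs per cell (5231, 4875 and 4201). At equal cluster makeup, hashtags 7, 6 and 8 had Irf4 at 36.1, 30.7 and 23.9 CPM and Batf at 53.8, 52.3 and 45.1 CPM, in the same order. Il1r2 was then at 10.7, 11.5 and 2.89 CPM, with hashtag 6 highest. What sets the order was not tested. Batf was at 49.8, 57.0 and 43.5 CPM (-0.06 ± 0.12, log2, SE; edgeR adjusted p = 0.90). Maf was at 203, 217 and 177 CPM (0.11 ± 0.08, log2, SE; edgeR adjusted p = 0.67). With the same cluster makeup in each hashtag, a setting added after seeing the data, Maf was at 182, 171 and 180.1 CPM with IL-33 and 198, 222 and 189 CPM with dopamine, without overlap. That is a log2 ratio of 0.19 (exact two-sided permutation p = 0.1, the smallest that 3 against 3 can give). The other members overlapped in this setting. It was run for the members only, so no share over all genes stands beside the separation of Maf.

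Prdm1 had the reverse order of hashtags, at 25.2, 23.7 and 32.4 CPM with hashtag 8 highest (0.07 ± 0.13, log2, SE; edgeR adjusted p = 0.90). IL-33 plus dopamine over PBS shares its PBS hashtags with the first comparison and passed 0 of 10820 genes by edgeR and by DESeq2 (0.0%; 5.91% at an unadjusted p under 0.05). Without overlap 14.9% of all genes were higher and 9.03% lower (24.0% in either direction), against 1 and 0 of the 5 members, Il1r2 being the 1. That separation rests on 7 UMIs in hashtag 8 (1.08 CPM) against 1 UMI in PBS hashtag 1 (0.716 CPM). In hashtag 1, 3 counts would be 2.15 CPM, so the gap is within counting error. The log2 changes of IL-33 plus dopamine over PBS were 1.08 for Irf4, 0.32 for Batf, 0.11 for Maf and -0.22 for Prdm1, beside 1.35, 0.38, 0.00 and -0.29 for IL-33 alone.

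**Figure D2:**
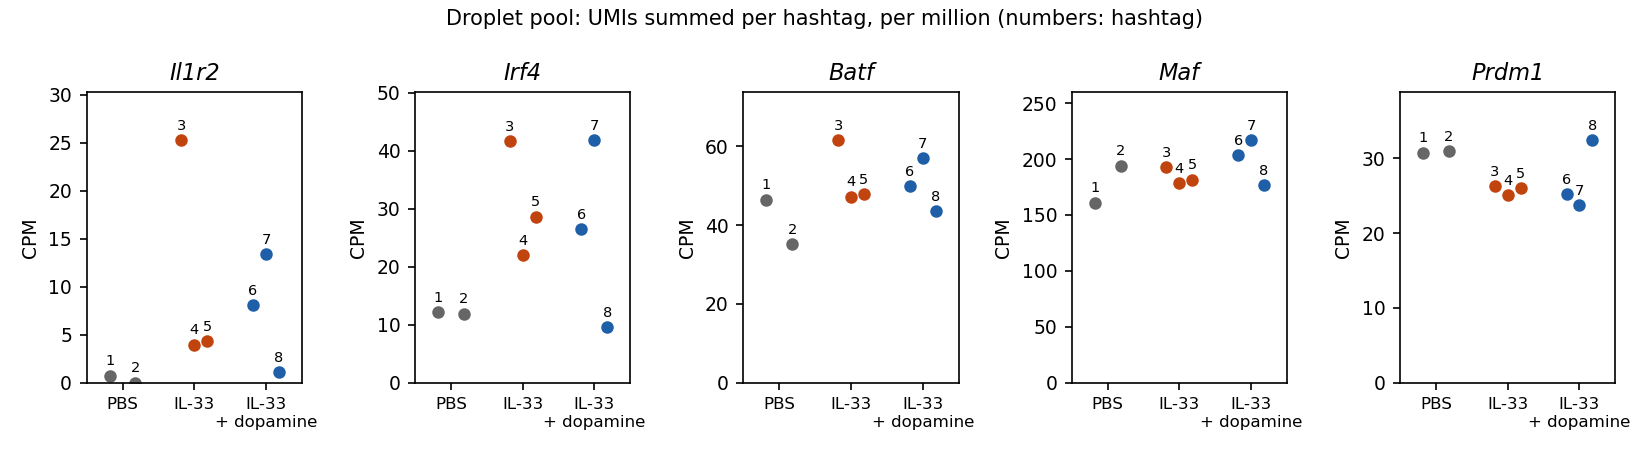
UMIs per 1000000 (CPM, vertical axes from 0) of 5 genes in each hashtag of the droplet pool, numbered, for PBS, IL-33 and IL-33 plus dopamine. Il1r2 is near 0 in both PBS hashtags and varies from 1.08 to 25.2 CPM among the 6 others, with hashtag 3 highest and hashtag 8 lowest.

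**Figure D3:**
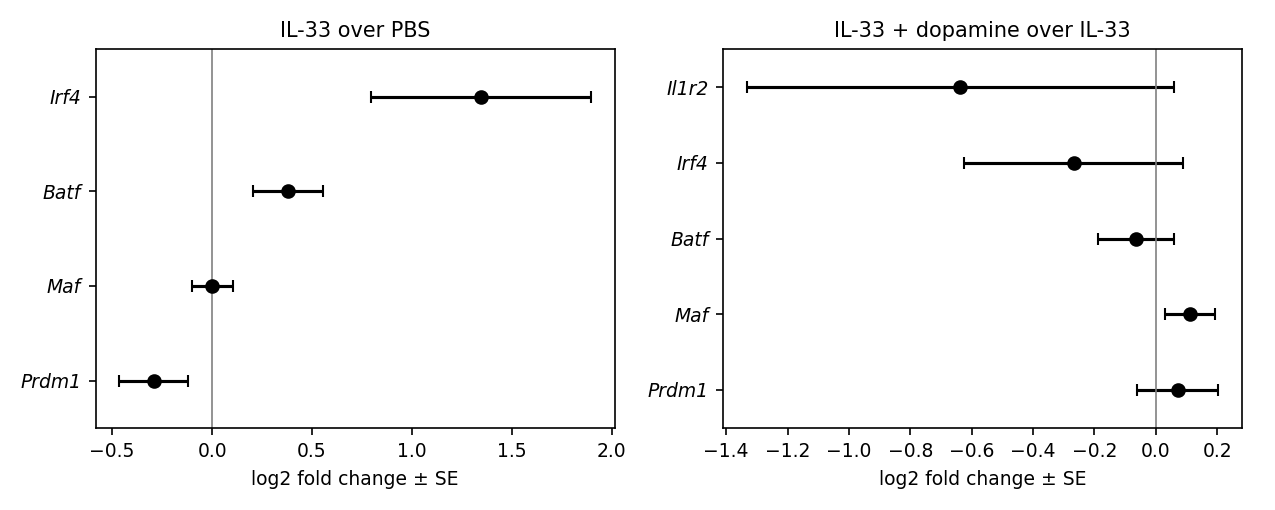
Log2 fold changes (horizontal axes) ± SE from edgeR for IL-33 over PBS and for IL-33 plus dopamine over IL-33; Il1r2 is left out of the first because PBS held 1 UMI. Irf4 has the widest bar of the 4 genes in the first panel (1.35 ± 0.55), and Il1r2 the widest of the 5 in the second (-0.64 ± 0.70).

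Shares of cells did not separate IL-33 from dopamine at equal depth. With each cell thinned at random to 2000 UMIs, 0.941% ± 0.944 of IL-33 cells and 0.529% ± 0.285 of dopamine cells (SD, n = 3 hashtags) held Il1r2, against 0.161% of PBS cells (exact two-sided permutation p = 0.6 for dopamine against IL-33, where 3 against 3 hashtags cannot go below 0.1). For Irf4 the shares were 3.39% ± 1.59 and 3.73% ± 1.88 (exact permutation p = 0.9), and averaged over all possible draws 3.78% and 3.395%, the opposite order. Unthinned, 2.07% and 1.150% of cells held Il1r2 and 8.84% and 7.61% held Irf4. Lyz2, a myeloid gene that ILC2s should lack, had a UMI in 0.260% and 0.251% of the same cells unthinned, and in 0.228% with PBS, so the 0.161% of PBS cells with Il1r2 is at that background.

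Across the 6 clusters the 5 genes did not all have their highest mean in the same cluster. For Il1r2 and Irf4 the place in cluster 5 follows from how they were chosen. Il1r2, Irf4 and Batf were highest in cluster 5, Maf in cluster 4 and Prdm1 in cluster 2. These levels are given without a test, because the clusters were made from the same cells, and each mean is over the hashtags with at least 20 cells in the cluster.

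Il1r2 averaged 34.7 ± 29.4 CPM in cluster 5 (SD, n = 7), then 3.37 in cluster 1 and 0.472 to 0.955 in the other 4. In cluster 5 it was at 72.3, 16.8 and 14.96 CPM in the IL-33 hashtags, at 61.8, 62.2 and 14.97 CPM in the dopamine hashtags, and at 0 in PBS hashtag 2. Cluster 5 held 83.9% of all Il1r2 UMIs and 10.1% of the cells. Clusters 0, 2, 3 and 4 could not be ordered, since each held 5 to 7 UMIs.

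Irf4 averaged 100.2 ± 17.3 CPM in cluster 5 (SD, n = 7), from 75.5 to 126 CPM, and no hashtag of another cluster reached that range: the next, cluster 3, averaged 28.9 ± 15.2 CPM (n = 8) and reached 47.7 CPM. Cluster 2 followed at 17.9 ± 4.94, cluster 1 at 12.5 ± 7.96, cluster 4 at 8.52 ± 6.63 and cluster 0 at 3.52 ± 1.46 CPM (n = 8), with neighbours from cluster 3 to cluster 4 overlapping. PBS hashtag 2 had Irf4 at 104 CPM in cluster 5, above the IL-33 hashtags (82.0 to 101 CPM) and within the dopamine hashtags (75.5 to 126 CPM), from 13 UMIs in 23 cells. Irf4 had a UMI in 17.4% of those 23 cells, against 30.8% to 41.2% in the IL-33 and dopamine hashtags, unthinned. Of the 23 cells 0 held an Il1r2 UMI, which allows a share of cells with a UMI of up to 13.0% and does not limit the cells that express it.

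Batf averaged 77.8 ± 13.9 CPM in cluster 5 (n = 7), 54.6 to 56.9 CPM in clusters 2, 3 and 4, and 30.4 and 29.8 CPM in clusters 0 and 1 (SD of 6.47 to 12.7 in these 5). Clusters 2, 3 and 4 did not differ beyond their spread, nor did clusters 0 and 1. Cluster 5 was the highest for Batf in the 6 hashtags with IL-33, while in both PBS hashtags it was cluster 4 (65.9 and 59.4 CPM). Those values rest on 9 and 24 UMIs. Close to them were cluster 2 in hashtag 1 (62.7 CPM) and cluster 5 in hashtag 2 (56.1 CPM from 7 UMIs), so the order with PBS is uncertain. Cluster 5 of PBS hashtag 1 held only 8 cells and was not ranked. Maf averaged 265 ± 21.2 CPM in cluster 4, which was its highest cluster in all 8 hashtags, then 221 ± 31.7 in cluster 1, 195 ± 19.2 in cluster 0, 173 ± 26.2 in cluster 5, 161 ± 24.8 in cluster 2 and 109 ± 31.5 in cluster 3 (SD).

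Prdm1 averaged 37.1 ± 9.50 CPM in cluster 2 and 23.7 ± 4.08 CPM in cluster 5, below clusters 3 and 0 (32.1 and 28.4 CPM). Its range between clusters was 1.957-fold from lowest to highest mean, beside 2.43 for Maf and 2.61 for Batf, and the highest cluster was cluster 2 in 5 of the 8 hashtags.

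**Figure D4:**
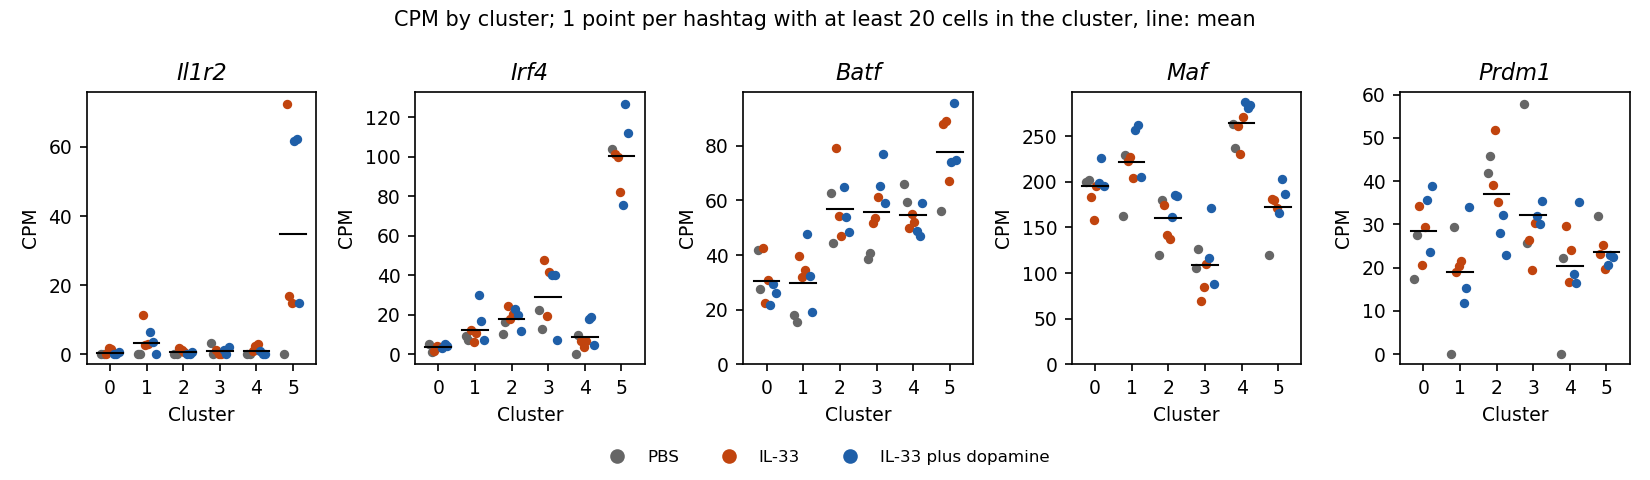
CPM (vertical axes) of 5 genes in clusters 0 to 5; points are hashtags with at least 20 cells in the cluster, coloured by treatment, and lines are their means. Il1r2, Irf4 and Batf have their highest mean in cluster 5 (34.7, 100.2 and 77.8 CPM), Maf in cluster 4 (265 CPM) and Prdm1 in cluster 2 (37.1 CPM).

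**Figure D5:**
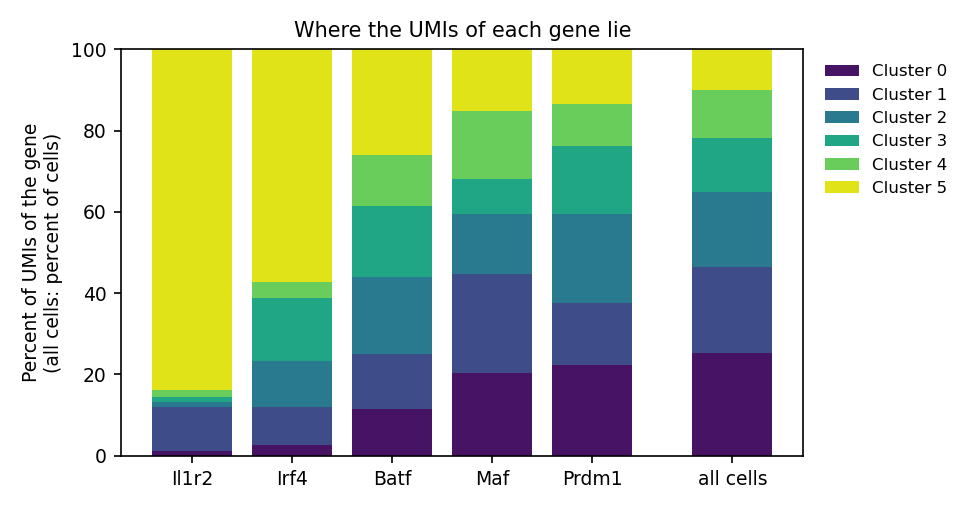
Percent of the UMIs of each gene (bars, from 0 to 100) that lie in clusters 0 to 5, beside the percent of all cells in each cluster. Cluster 5 has 10.1% of the cells but 83.9% of Il1r2 and 57.2% of Irf4 UMIs, against 26.1% for Batf, 15.2% for Maf and 13.4% for Prdm1; its cells hold more UMIs than those of other clusters.

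Within clusters, where the treatment contrast is separate from the choice of genes, no tested member passed by edgeR with dopamine. Il1r2 was filtered out for low counts, and so not tested, in clusters 0, 1, 2, 3 and 4, as was Irf4 in clusters 0 and 4. In cluster 5, 19 of 7156 genes passed (0.266%; 8.36% at an unadjusted p under 0.05) and the 5 members were at log2 changes of 0.46 ± 0.37 for Il1r2, 0.13 ± 0.17 for Irf4, 0.05 ± 0.17 for Batf, 0.04 ± 0.13 for Maf and -0.06 ± 0.26 for Prdm1 (SE), all with an edgeR adjusted p of 0.80 or more (0.80 for Il1r2). In clusters 0, 1, 2, 3 and 4 the share of all genes that passed was 0.0388%, 0.075%, 0.0%, 0.0% and 0.0548%, and 6.65%, 5.5%, 5.89%, 5.39% and 6.5% had an unadjusted p under 0.05, as had 3 of the member tests: Prdm1 in cluster 2, Irf4 in cluster 1 and Maf in cluster 3 (0.46 ± 0.20, log2, SE; edgeR adjusted p = 0.84). Prdm1 in cluster 2 was at 39.1, 51.8 and 35.2 CPM with IL-33 and 28.1, 32.1 and 22.9 CPM with dopamine, without overlap. Its change was -0.63 ± 0.21 (log2, SE), with an edgeR adjusted p of 0.59. Without overlap too was Maf in cluster 4, at 262, 230 and 272 CPM with IL-33 and 288, 281 and 284 CPM with dopamine. Its change was 0.13 ± 0.10 (log2, SE), with an edgeR adjusted p of 0.89. The share of all genes without overlap within clusters is not given, so these separations cannot be set beside it. Irf4 in cluster 1 was at 12.3, 6.09 and 10.8 CPM with IL-33 and 30.2, 16.8 and 7.39 CPM with dopamine, which overlap (0.91 ± 0.34, log2, SE; edgeR adjusted p = 0.78).

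With IL-33 over PBS within clusters 0 to 4, again no tested member passed by edgeR, where 0.0496%, 0.0238%, 0.0405%, 0.0609% and 0.109% of all genes passed and 6.7%, 6.99%, 6.16%, 7.8% and 6.9% had an unadjusted p under 0.05. Il1r2 was filtered out for low counts in each of these clusters, and Irf4 in cluster 0, so they were not tested there. Batf in cluster 1 was the 1 member under an unadjusted p of 0.05, at 18.1 and 15.5 CPM with PBS and 39.8, 31.8 and 34.3 CPM with IL-33 (1.16 ± 0.41, log2, SE; edgeR adjusted p = 0.54).

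Il1r2 was a gene of few cells. Only 132 of the 9076 cells held a UMI of it, 84 of them in cluster 5, where they were 9.20% of the 913 cells, and 1 cell held 37. In hashtag 3, 2 cells with 37 and 35 UMIs gave 30.8% of its 234 UMIs, and in hashtags 4 to 7 the top 2 cells gave 33.3% to 40.5%. The share of cluster 5 cells with Il1r2 was 12.2%, 5.15% and 4.49% in the IL-33 hashtags and 9.52%, 12.9% and 3.85% in the dopamine hashtags. By contrast Irf4 was found in 699 cells, Prdm1 in 1074, Batf in 1754 and Maf in 4688.

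The 84 Il1r2-holding cells of cluster 5 carried ILC2 markers: 97.6% held Gata3 and 97.6% Il1rl1. S100a8 had a UMI in 0 of the 84, which allows a share of cells with a UMI of up to 3.57%, and in 2 of the 829 other cells of the cluster. Irf4 had a UMI in 53.6% of them, against 34.4% of the 829 cluster 5 cells without Il1r2, and at an equal depth of 2000 UMIs in 23.2% against 14.3%; their median UMIs were 10334 and 7929. Prdm1 at equal depth was found in 2.86% against 4.61%. These shares are over cells of a few hashtags, are a description and carry no test.

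By the rule for likeness (Pearson r of log2(CPM + 1) over 18 cluster-by-treatment profiles, among 2507 genes with at least 50 CPM), the genes closest to Il1r2 were Rps26 (0.89), Pcsk1 (0.87), Nap1l1 (0.85), Cct2 (0.85) and Polr1d (0.83). Closest to Irf4 was Cd83 (0.95), an activation marker, then Hlf, Wnk1, Ubald2 and Sh2d2a (0.90 to 0.91), and closest to Batf were Gpr183 (0.88), Chd4, Zfp622, Rab8a and Selplg (0.84 to 0.86). Closest to Maf were Ahsa1 (0.93), a co-chaperone, Apobec3, Mat2b, Atrx and Sirt7 (0.92), and to Prdm1 Prrc2c (0.81), Sf1, Arih1, Nr4a2 and Tnfaip3 (0.77 to 0.80). Between members r was 0.66 for Irf4 and Batf, 0.57 for Il1r2 and Irf4, 0.49 for Il1r2 and Batf, and -0.60 for Maf and Prdm1. The 18 profiles share 1 library and differ in depth.

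The other genes of these pathways did not pass in single cells either. In IL-33 plus dopamine over IL-33, 0 genes of the 8 functional lists passed by edgeR, and the only marker gene that did was the T cell gene Cd3g, lower with dopamine. The medians of the lists ran from -0.10 for the interferon regulatory factors to 0.17 for the regulatory T cell list, against 0.00 over all genes. Il1r1, the receptor with which IL1R2 competes, was barely detected, with 14 UMIs in all cells. Ctla4 was at 7.16 and 4.47 CPM with PBS, at 18.02, 8.58 and 10.35 CPM with IL-33 and at 9.01, 16.7 and 4.63 CPM with dopamine, with the same highest and lowest hashtags as Il1r2 and, like it, its highest mean in cluster 5 (33.8 ± 12.6 CPM, SD, n = 7).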

How the data were processed

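Per the submitters' processing notes, the authors used cutadapt 2.10, STAR 2.7.5c, RSEM 1.3.3, Cell Ranger 6.1.1, Seurat 4.0.2 and the build mm10, with no settings given. The bulk values deposited by the authors are TPM for 55413 genes, and the droplet values deposited are UMI counts for 15083 genes in 9076 cells. The deposited cell table gives each cell's hashtag, treatment, cluster number and percent of mitochondrial UMIs (at most 7.50). The sources used here do not say how doublets were treated; no caller was run.

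Bulk genes at or above 1 TPM in 3 or more libraries were tested with limma 3.58.1 (trend) on log2(TPM + 1). UMI counts were summed per hashtag, or per hashtag and cluster with at least 20 cells, and tested with edgeR 4.0.16 (TMM, filterByExpr, quasi-likelihood) in R 4.3.3; DESeq2 1.42.0 was an alternative. The threshold was an adjusted p of 0.05 over all genes. Both fits were tested on simulated data. Shares of cells used 1 seeded draw of 2000 UMIs per cell, with an exact permutation test over hashtags. That draw proved noisy, so shares by cluster, by gene pair and in Il1r2-holding cells are the expectation over all draws, a choice made after seeing the data. Il1r2 and Irf4 were chosen on these cells, and the members, gene lists, motifs and tests were chosen with earlier results of these data known. Genes named beyond the 6 members were partners (Il1r1, Il1rap, Il1rl1, Il10ra, Il10rb, Bach2, Bcl6, Nfil3, Junb, Ctla4), identity genes (Gata3, Foxp3, S100a8, Lyz2, Jchain), up to 4 list genes per comparison that passed, and the 5 closest genes by pattern for each member. S100a9, Batf3, Mafk, Cd3g and those of the closing observations were named after their values were seen. Equally numbered bulk libraries did not deviate together (r of 0.0186, -0.0710 and -0.00177), so they were not treated as paired.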

Additional observations from a re-analysis of the deposited data

Results flagged for a closer look

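Batf with IL-33 lay above PBS in some clusters and below it in another. This pattern was found by a search over members and clusters in the IL-33 and the dopamine contrast. The mean over hashtags was 16.8 CPM with PBS and 35.3 CPM with IL-33 in cluster 1 (2.103-fold). In cluster 3 the means were 39.6 and 55.5 CPM (1.401-fold). In cluster 4 they were 62.6 and 52.2 CPM (a ratio of 0.834), where the edgeR change was -0.26 ± 0.28 (log2, SE). Every IL-33 hashtag was above both PBS hashtags in clusters 1 and 3 and below both in cluster 4. Over the whole pool 20.8% of all tested genes were higher and 13.5% lower without overlap, and the shares within clusters are not given. PBS hashtags 1 and 2 held few Batf UMIs: 2 and 11 in cluster 1, 12 and 19 in cluster 3, and 9 and 24 in cluster 4. The difference between clusters was not tested. Within the clusters the edgeR adjusted p was 0.54, 0.73 and 0.90.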

How the results depend on the processing

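The count of bulk genes past the threshold was 4 and moved to 2 with a pseudocount of 5, 0 with no filter, 2 with a mean TPM of at least 5, 21 with quantile normalization, 2800 with array weights and 15 with the replicate block; without 1 library each it ran from 0 (PBS library 2) to 1536 (PBS library 1), with 1 without dopamine library 2 and 90 without PBS library 3. Same-numbered libraries share only a number. In single cells, dopamine over IL-33 gave 26 with DESeq2 and 9 with cells of middle depth (3 in the main analysis) and, without 1 hashtag each, 1 (hashtags 3 and 4) to 16 (hashtag 7), with 7 without hashtag 6. IL-33 over PBS gave 45 with DESeq2 and 14 with no filter (0 in the main analysis) and 0 to 48 (hashtag 8) without 1 hashtag each, and IL-33 plus dopamine over PBS 0 to 4 (hashtag 8).

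In bulk, relative Irf4 turned to 0.068 with array weights and, without 1 library each, ran from -0.54 to 0.043 (0.043 without dopamine library 2, 0.03 without PBS library 1), and Prdm1 from -0.94 to 0.034 (0.034 without dopamine library 3). With dopamine in single cells, without 1 hashtag each, Il1r2 ran from -1.35 to 0.86, Irf4 from -0.80 to 0.10 and Batf from -0.16 to 0.079, positive without hashtag 3 for all 3 and without hashtag 8 for Irf4 and Batf. Batf turned to 0.026 with cells of middle depth, and Prdm1 ran from -0.10 (without hashtag 8) to 0.16. With equal cluster makeup, added after seeing the data, Il1r2 was at 0.16, Irf4 at 0.15, Batf at -0.02, Prdm1 at -0.032 and Maf at 0.19 (0.11 in the main analysis). With IL-33, Maf turned to -0.0015 with DESeq2, -0.0016 with RLE normalization, and -0.11, -0.03 and -0.0017 without hashtags 1, 3 and 8. The difference in share of cells (dopamine minus IL-33, percentage points) turned for Irf4 from 0.34 to -0.79 at 3000 UMIs, -1.22 unthinned and -0.39 over all draws, for Maf to -2.56 and for Prdm1 to -0.74 unthinned. The cause was not tested in any of these. The depth of the bulk libraries is unknown, and Il1r2 in PBS cells is limited to 1 UMI.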

Other observations

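Cluster 5 cells with Il1r2 differed from those without in pooled levels, given with no test; 40 of the 84 cells with Il1r2 were from hashtag 3, and the genes here other than Ctla4 were named after their values were seen. Tnfrsf4 (OX40, a co-stimulatory receptor) stood at 168 against 54.2 CPM, Ctla4 at 67.8 against 34.4 CPM, Il18r1 at 95.8 against 34.1 CPM and Itgae, an integrin that binds epithelial E-cadherin, at 59.6 against 9.28 CPM. Hashtags differed: Itgae was at 14.4 against 7.11 CPM in hashtag 3 and 116 against 14.5 CPM in hashtag 7 (22 cells with Il1r2). In hashtag 5 (8 cells with Il1r2) it was at 0 against 4.37 CPM. Tnfrsf4 and Il18r1 were also lower there, at 29.0 against 41.8 and 14.5 against 19.3 CPM, and higher in hashtags 3 and 7. Il13 stood at 833 against 504 CPM and Il5 at 498 against 575 CPM, while both had a UMI in a larger share of the cells with Il1r2 at equal depth (53.4% against 32.6% for Il13, 40.3% against 38.0% for Il5). Tff1, a secreted trefoil peptide, had a UMI in 17 of the 84 cells and in 20 of the 829. Ccr2 was lower, at 250.03 against 498 CPM.

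Il1r2 ranked higher among genes in bulk than in single cells: of the 14956 genes in both tables its mean with IL-33 was at the 97.4th percentile by TPM and the 56.3rd by CPM, which is not corrected for length. Maf ranked the other way, at 70.6 and 95.6, while Irf4 ranked alike, at 76.0 and 75.3. In the bulk PBS libraries the ratio of Il1r2 to Irf4 TPM was 8.81, 27.5 and 25.4, and with dopamine 6.80, 5.15 and 2.03.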
